A study of Homo sapiens with 12 samples.

Results

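The interferon-stimulated antiviral genes described here are the 10 genes OAS2, OAS3, IFIH1, IFI6, IFIT1, IRF7, USP18, MX2, GBP2 and GBP5. They were found by symbol in the authors' deposited table of 2587 genes, where each has 1 row. They are known members of the interferon response, and they were chosen with earlier results of these data known. They were measured in Jurkat cells, an established human T-cell leukaemia line, by sequencing of poly(A) RNA. Activated HuRKO cells, resting HuRKO cells, activated WT cells and resting WT cells make up 4 groups with 3 libraries each. HuRKO cells are labelled as knocked out for HuR and WT cells as wild type. HuR, the product of ELAVL1, attaches to U-rich and AU-rich stretches of mRNA. Activated cells received 20 ng/mL PMA and 500 ng/mL ionomycin for 24 h, a pair of drugs that mimics signalling from the T-cell receptor, and resting cells received neither. The labels do not say how the knockout was made, whether the HuRKO cells are 1 clone, or whether replicates are separate cultures.

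Interferons are secreted proteins that cells release on infection or stimulation. Type I interferons signal from their receptor through the kinases JAK1 and TYK2 to the interferon-stimulated response element (ISRE) in promoters of target genes. Interferon gamma, a T-cell product, acts mainly through a different element, the gamma-activated site (GAS). The products block viruses at several steps. IFIH1 (MDA5) senses long double-stranded RNA in the cytoplasm, and IRF7 is the transcription factor that amplifies type I interferon production. OAS2 and OAS3 make the 2-5A messenger that switches on the RNA-degrading enzyme RNase L. IFIT1 binds viral RNA that lacks the methylation of host caps, MX2 is a GTPase that restricts HIV-1, and IFI6 is a small membrane protein with antiviral and anti-apoptotic activity. GBP2 and GBP5 are guanylate-binding GTPases of cell-autonomous immunity. USP18 removes the ubiquitin-like modifier ISG15 from proteins and dampens signalling at the type I interferon receptor.

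The ISRE is shown first because many genes of this response are known to be induced through it. RefSeq promoter windows (build GRCh38.p14, from 250 bases before to 50 after the start) were available for 4 of the 10 genes, IFIH1, OAS3, IFIT1 and IFI6. No window was available for OAS2, IRF7, USP18, MX2, GBP2 and GBP5, so their promoters were not searched. The ISRE core, GAAA followed by any 2 bases and a further GAAA, was searched on both strands (on the opposite strand it reads TTTC, any 2 bases, TTTC). Each of the 4 windows held 2 or more matches, 10 in all, whereas of 27305 genes with a window 4.38% held at least 1 match and 0.311% held 2 or more. Representative stretches of 30 bases follow, each on the strand of its gene, with the matches in capitals.
IFIH1, chr2:162318821-162318850, minus strand: aattcgcTTTCCTTTTCTGTTTCccgcggt
OAS3, chr12:112938321-112938350, plus strand: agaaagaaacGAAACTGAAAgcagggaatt
OAS3, chr12:112938444-112938473, plus strand: gttcggagagccgggcggGAAAACGAAAcc
IFIT1, chr10:89392504-89392533, plus strand: tagTTTCACTTTCcccTTTCGGTTTCccta
IFI6, chr1:27672329-27672358, minus strand: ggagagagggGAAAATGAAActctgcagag
IFI6, chr1:27672288-27672317, minus strand: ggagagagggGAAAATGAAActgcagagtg

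The IFIH1 stretch holds 2 overlapping matches on the strand opposite to the gene, and IFIT1 holds 2 matches on that strand that are close but do not overlap. The IFI6 stretches carry the same 10 letters. The windows use RefSeq starts, which differ from the starts in the GENCODE gene coordinates given further on. By GENCODE, OAS3 begins at 112938352, so the OAS3 stretch at 112938444-112938473 lies inside the gene. An IFIH1 stretch not printed above, 162318686-162318715 with 1 match, spans the GENCODE start of IFIH1 at 162318703. The GAS core, TTC and GAA separated by any 3 bases, which reads the same on both strands, was in 0 of the 4 windows and in 9.38% of all promoters. With 4 windows, 0 cannot be told apart from a share of 9.38%. In the wider interferon pathway list described further on, 13 of 29 non-member promoters held the ISRE core and 8 of 29 held the GAS core. A match describes these letters only and was not tested as a binding site.

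**Figure D1:**
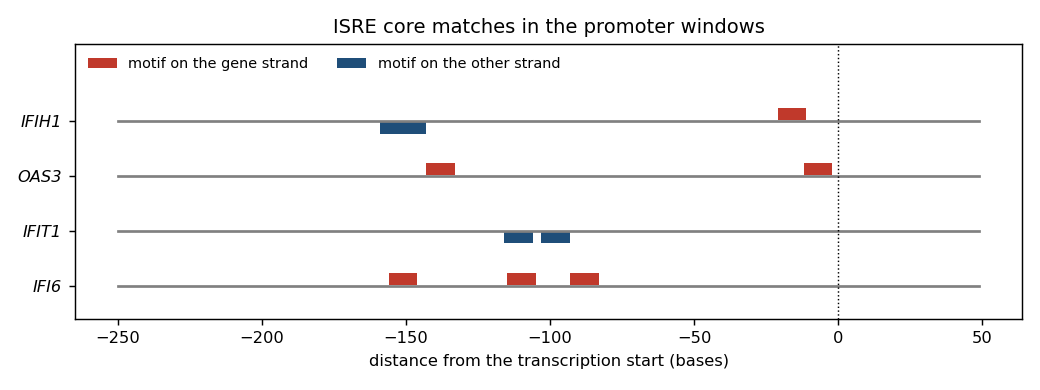
Positions of the ISRE core matches in the 4 promoter windows, with 1 line per gene. The horizontal axis is the distance in bases from the RefSeq transcription start. Red boxes above a line are matches on the gene's strand and blue boxes below it are matches on the opposite strand. All 10 matches lie before the RefSeq start, the nearest at bases -12 to -3 in OAS3. By the GENCODE starts, that match lies inside OAS3, and the IFIH1 match at bases -21 to -12 overlaps the start.

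The values are group levels and changes. A group level is a normalised read count rebuilt from the mean level and the fold changes of the table, so it has no error of its own. A log2 change comes with the authors' false discovery rate (FDR), and a gene counts as called where FDR is below 0.05. From each FDR the largest standard error (SE) it allows was computed under a normal approximation. Every one of the 2587 genes passed FDR below 0.05 and more than 4-fold in at least 1 of the 4 comparisons, so each member had to be called somewhere. Levels of different genes are not compared, since they are not per length. The depth of the libraries is unknown here, and 1 normalised count (3 counts over a group) was taken as the floor.

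The targeted gene ELAVL1 had a level of 471 in activated HuRKO cells against 2552 in activated WT cells, and of 596 in resting HuRKO cells against 4042 in resting WT cells. Other features of the table moved with genotype too. Of 17 listed chromosome Y genes, 16 were lower in HuRKO cells in either state, and of 49 listed small nuclear, small nucleolar and ribosomal RNA genes, which lack poly(A) tails, 45 were lower in activated and 23 in resting HuRKO cells. Of 14 T-cell markers 4 are listed, and their summed level was 28016 in activated HuRKO against 26577 in activated WT cells, and 4841 in resting HuRKO against 10655 in resting WT cells. The activated sum joins opposite changes, with CD28 higher in HuRKO, CD2 and TRAC lower and CD7 not called. Of 9 monocyte and macrophage markers 2 are listed, with sums of 106 against 74.3 after activation, while at rest the sum in HuRKO cells was 10.0 and that in WT cells was near the floor. Most of the activated sum is ITGAM, at 74.2 against 67.2 and not called, while CSF1R was higher in HuRKO, at 31.5 against 7.11. At rest ITGAM was called and higher in HuRKO, and CSF1R was below the floor in both genotypes. Of 6 natural killer markers 3 are listed, with sums of 200.4 against 149 and 33.5 against 12.9. Most of the activated sum is KLRD1, at 165 against 116 and not called, while NCAM1 was higher in HuRKO and KLRF1 lower. At rest only NCAM1 was called, and it was higher in HuRKO. Of 7 B-cell markers 1 is listed, with 17.2 against 19.8 and 10.1 against 1.41, and it was called only at rest. Of 8 epithelial and stromal markers 2 are listed, with 162 against 222 and 80.8 against 29.7. COL1A1 was called lower in HuRKO after activation and higher at rest, and VWF was not called in either state. Of 7 dendritic markers 0 are listed. The part of these features in the results below was not tested. In bulk RNA, fewer cells with a transcript and less of it per cell cannot be told apart.

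In activated cells, HuRKO levels fell short of WT levels for 9 of the 10 genes and exceeded them for 1, all 10 called, against 35.4% of the table lower and 42.2% higher. Past 4-fold, 8 were lower and 0 higher, against 22.3% and 31.7% of the table. The median log2 change of the 10 was -2.87, and that of all 2587 genes 0.36. Since the table was itself selected on this comparison, among others, these counts describe the genes and are not a test of the group.

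The double-stranded RNA sensor IFIH1 (ENSG00000115267.5, chromosome 2, 162267079 to 162318703, minus strand, hg38) had a level of 68.3 in activated HuRKO cells against 1439 in activated WT cells. It was 21.1-fold lower. In the authors' deposited table this was a log2 change of -4.40 (FDR 5.8e-143), and the SE was at most 0.17. The transcription factor IRF7 (ENSG00000185507.19, chromosome 11, 612553 to 615999, minus strand) was at 444 against 1069. Its log2 change of -1.27 (FDR 6.2e-15 in the authors' deposited table) was the smallest fall of the 9.

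Among the effectors, IFIT1 (ENSG00000185745.9, chromosome 10, 89392546 to 89406486, plus strand) showed the largest fall of the 10 genes. Its level was 6.30 in activated HuRKO cells and 438 in activated WT cells, which is 69.5-fold lower. In the authors' deposited table the log2 change was -6.12 (FDR 1.5e-57, SE at most 0.38), the 46th lowest of 2587. OAS3 (ENSG00000111331.12, chromosome 12, 112938352 to 112973249, plus strand) was at 1008 against 8154, and OAS2 (ENSG00000111335.12, chromosome 12, 112978395 to 113011723, plus strand) at 529.9 against 3586. These are falls of 8.09-fold and 6.77-fold in neighbouring genes separated by 5145 bases. In the authors' deposited table their FDR values, 1.6e-192 for OAS3 and 5.1e-159 for OAS2, were the smallest of the 10 genes in this comparison. IFI6 (ENSG00000126709.14, chromosome 1, 27666061 to 27672218, minus strand) was at 234 against 1683, a 7.19-fold fall.

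MX2 (ENSG00000183486.12, chromosome 21, 41361943 to 41409390, plus strand) went the other way. Its level was 979 in activated HuRKO cells against 785 in activated WT cells. In the authors' deposited table the log2 change was 0.32 with an FDR of 0.049, close to the threshold, and it was no longer called at an FDR of 0.01. The 2 GTPases of the guanylate-binding family were both lower. GBP2 (ENSG00000162645.12, chromosome 1, 89106132 to 89150456, minus strand) was at 885 against 9241, and GBP5 (ENSG00000154451.14, chromosome 1, 89258950 to 89272804, minus strand) at 1580.1 against 11780.4. The falls were 10.4-fold and 7.46-fold, with SEs of at most 0.48 and 0.31 on the log2 scale. The signalling brake USP18 (ENSG00000184979.9, chromosome 22, 18149899 to 18177397, plus strand) was at 191 against 1255, or 6.56-fold lower. USP18 has a near-identical partial copy in USP41 and the guanylate-binding genes resemble each other, so reads may be split between copies. GBP2 overlaps GBP7 on the same strand, and OAS2, OAS3, IFI6, IFIT1 and GBP5 overlap an annotated gene on the opposite strand. The strand setting of the counting is not given in the sources used here.

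**Figure D2:**
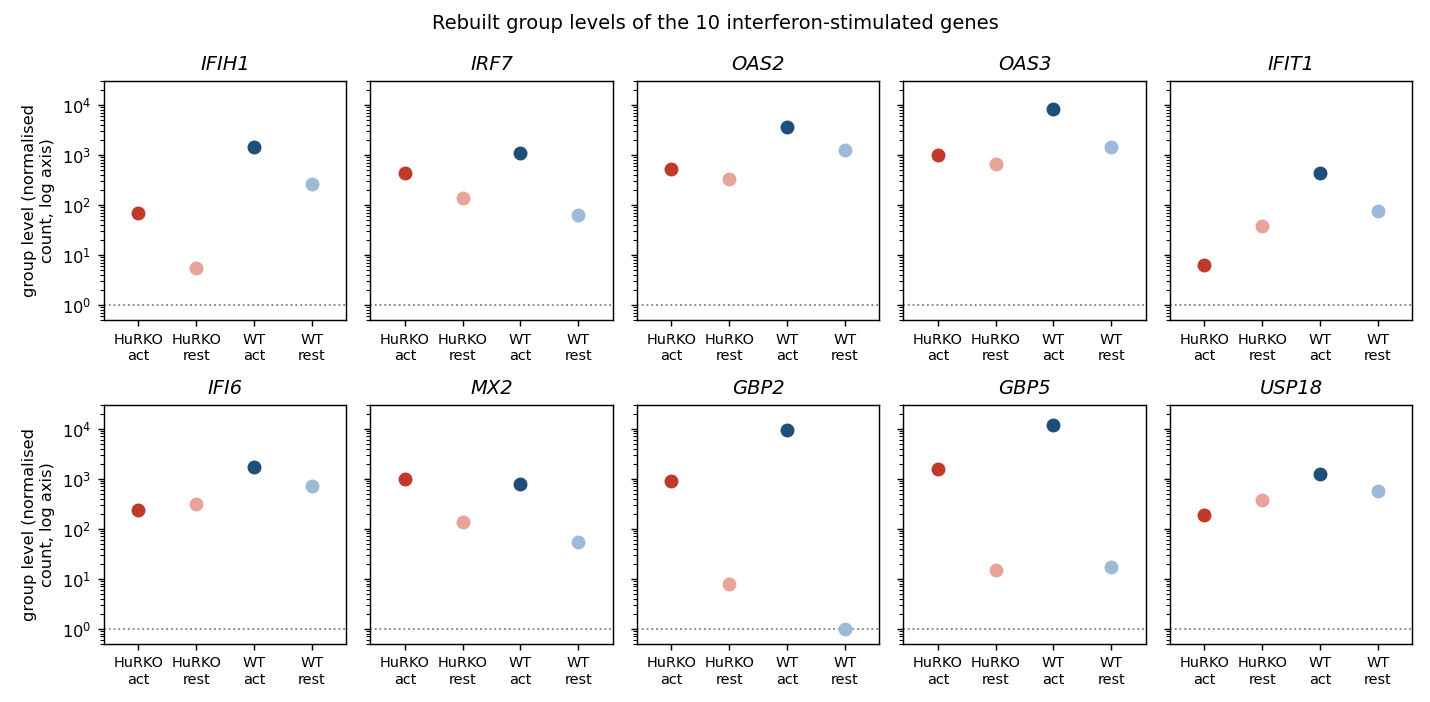
Rebuilt level of each of the 10 genes in the 4 groups, as a normalised count on a log axis, with 1 point per group (no replicate spread can be drawn) and the floor of 1 normalised count as a dotted line. In 9 panels the activated HuRKO point lies below the activated WT point, and in the MX2 panel it lies slightly above, at 979 against 785.

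In resting cells the genes were divided. In HuRKO cells 6 were lower, 3 were higher and 1 was not called, against 15.4% of the table lower and 25.0% higher. The median log2 change was -0.80, and 0.18 over all listed genes. Only IFIH1 and GBP2 passed 4-fold, in opposite directions (7.69% of the table lower and 13.7% higher by that rule).

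IFIH1 had the largest change at rest, with a level of 5.39 in resting HuRKO cells against 262 in resting WT cells. That is 48.6-fold lower, and in the authors' deposited table its log2 change of -5.60 (FDR 5.5e-44) was the 25th lowest of all genes. OAS2 was at 329.7 against 1248 and OAS3 at 645 against 1409, falls of 3.78-fold and 2.19-fold. IFI6 was at 305 against 711 and IFIT1 at 37.2 against 76.6. The USP18 fall was the smallest of the 6, at 376 against 555 (the authors' deposited table gives -0.56 on the log2 scale, FDR 0.0015).

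The 3 genes higher at rest were IRF7, MX2 and GBP2. IRF7 was at 140.5 in resting HuRKO cells against 62.7 in resting WT cells, 2.24-fold higher, although it was lower in HuRKO after activation. MX2 was at 136 against 53.6, 2.53-fold higher, and it was the only one of the 10 higher in HuRKO in both states. GBP2 was at 7.70 against 1.00, which is at the floor, so no fold is given. The authors' deposited table gives GBP2 a log2 change of 2.94 with an FDR of 0.018, a call lost at an FDR of 0.01, and the SE may be as large as 1.25. GBP5 was at 14.7 against 17.4 and was not called (the authors' deposited table gives -0.24 on the log2 scale, FDR 0.77), and its SE of at most 0.82 does not exclude a change of 2-fold.

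**Figure D3:**
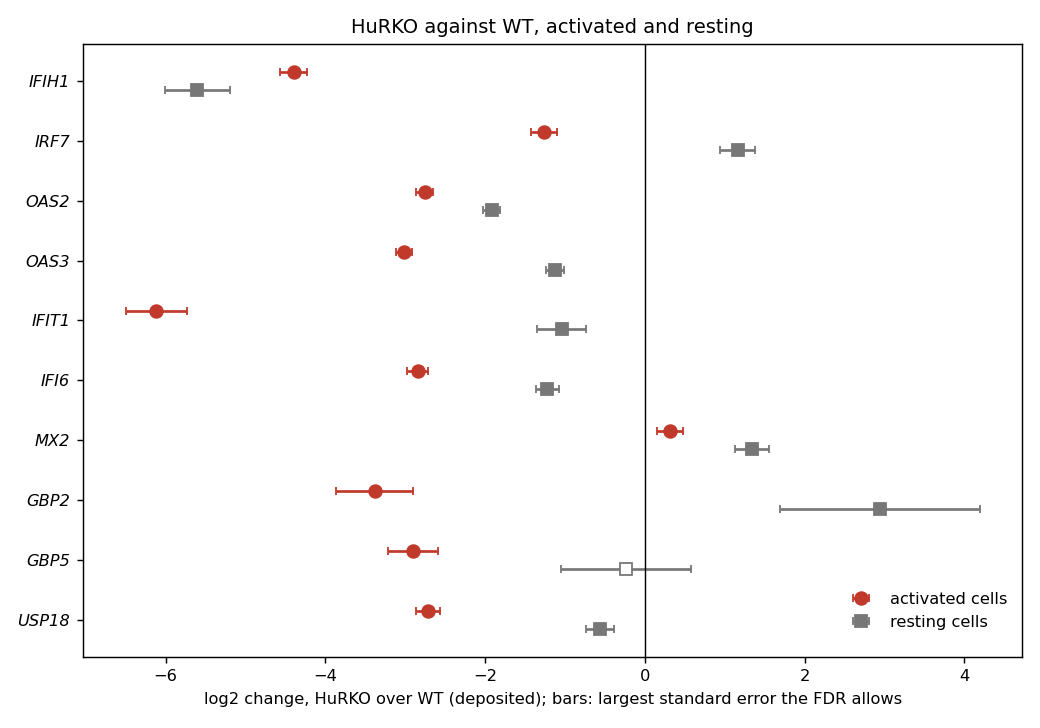
Deposited log2 change of HuRKO over WT for each gene in activated cells (red circles) and resting cells (grey squares), where a filled symbol has FDR below 0.05 and bars show the largest standard error the FDR allows. IFIH1 lies far left in both states (-4.40 and -5.60), IFIT1 lies at -6.12 in activated and -1.04 in resting cells, and IRF7 and GBP2 lie right of 0 at rest and left of 0 after activation.

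In HuRKO cells activation raised 7 of the 10 genes and lowered 3, against 58.1% of the table higher and 18.5% lower. GBP2 was at 885 in activated against 7.70 in resting HuRKO cells, a 115-fold rise, and GBP5 at 1580.1 against 14.7, a 107-fold rise. IFIH1 rose 12.7-fold, MX2 7.21-fold and IRF7 3.16-fold. OAS2 and OAS3 rose by 1.61-fold and 1.56-fold. The median log2 change of the 10 was 1.17, and 1.45 over the table.

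Activation raised all 10 genes in WT cells and lowered 0, against 52.0% and 21.8% of the table. The median log2 change was 2.52, and 1.42 over the table. The guanylate-binding genes had the largest responses. GBP5 was at 11780.4 in activated WT cells against 17.4 in resting WT cells, a 678-fold rise. GBP2 was at 9241 against the floor level of 1.00, and its log2 change of 13.17 in the authors' deposited table was the 5th highest of 2587 genes. IRF7 rose 17.1-fold and MX2 14.6-fold. OAS3, IFIT1 and IFIH1 rose by 5.79-fold, 5.72-fold and 5.50-fold, and OAS2, IFI6 and USP18 by 2.87-fold, 2.37-fold and 2.26-fold.

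The 3 genes that activation lowered in HuRKO cells were IFIT1, USP18 and IFI6. IFIT1 was at 6.30 in activated against 37.2 in resting HuRKO cells, and at 438 in activated against 76.6 in resting WT cells. In the authors' deposited table the log2 change on activation was -2.56 (FDR 5.5e-10) in HuRKO cells and 2.52 (FDR 3.2e-27) in WT cells. USP18 was at 191 against 376 in HuRKO and at 1255 against 555 in WT cells. IFI6 was at 234 against 305 in HuRKO and at 1683 against 711 in WT cells. In the authors' deposited table the IFI6 fall in HuRKO had a log2 change of -0.38 and an FDR of 0.012, so it was lost at an FDR of 0.01. Of the whole table, 2.32% of genes fell in HuRKO and rose in WT cells on activation with both called.

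The difference between the responses, the log2 change on activation in HuRKO minus that in WT, was negative in 9 of the 10 genes. A conservative normal test from the bounded SEs, with Bonferroni adjustment over 58780 annotated genes, called 8 of the 10, all 8 with a smaller or reversed response in HuRKO cells, against 10.4% of the table in that direction. The median difference was -2.02, and -0.07 over the table. OAS2, IFI6 and USP18 passed the rule of the table only by their fall in activated HuRKO against activated WT cells. That change enters the difference, so the count of 8 describes the genes and is not a test of the group. IFIT1 had a difference of -5.08 (SE at most 0.47, adjusted p 5.4e-22), a 33.8-fold gap in response. The OAS3 difference was -1.89 (adjusted p 8.3e-32), that of IRF7 -2.43 (adjusted p 1.7e-16), that of USP18 -2.15 (adjusted p 1.0e-17) and that of IFI6 -1.63 (adjusted p 6.3e-12). OAS2 differed least among the called genes, by -0.84 (adjusted p 0.0016).

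GBP2 and GBP5 had differences of -6.33 (SE at most 1.13, adjusted p 0.0011) and -2.66 (SE at most 0.53, adjusted p 0.029). Both calls rest on the activation comparisons, since neither passed with the genotype comparisons alone (adjusted p 0.14 and 1). MX2 had a difference of -1.02 and IFIH1 one of 1.20, and neither was called by Bonferroni (adjusted p 1 for both). With Benjamini-Hochberg adjustment over the table both passed (adjusted p 0.00012 and 0.015). The genes of the table were selected on comparisons that enter the difference, so this adjustment may be too lenient. IFIH1 was the only gene of the 10 with a larger relative response in HuRKO cells, from a resting HuRKO level of 5.39. Its activated HuRKO level of 68.3 stayed below the resting WT level of 262. The same order of levels was seen in OAS2, OAS3, IFI6, IFIT1 and USP18, and these 2 groups were not compared by a test. The genotype and activation comparisons share libraries, so a low value in activated HuRKO cells enters both.

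**Figure D4:**
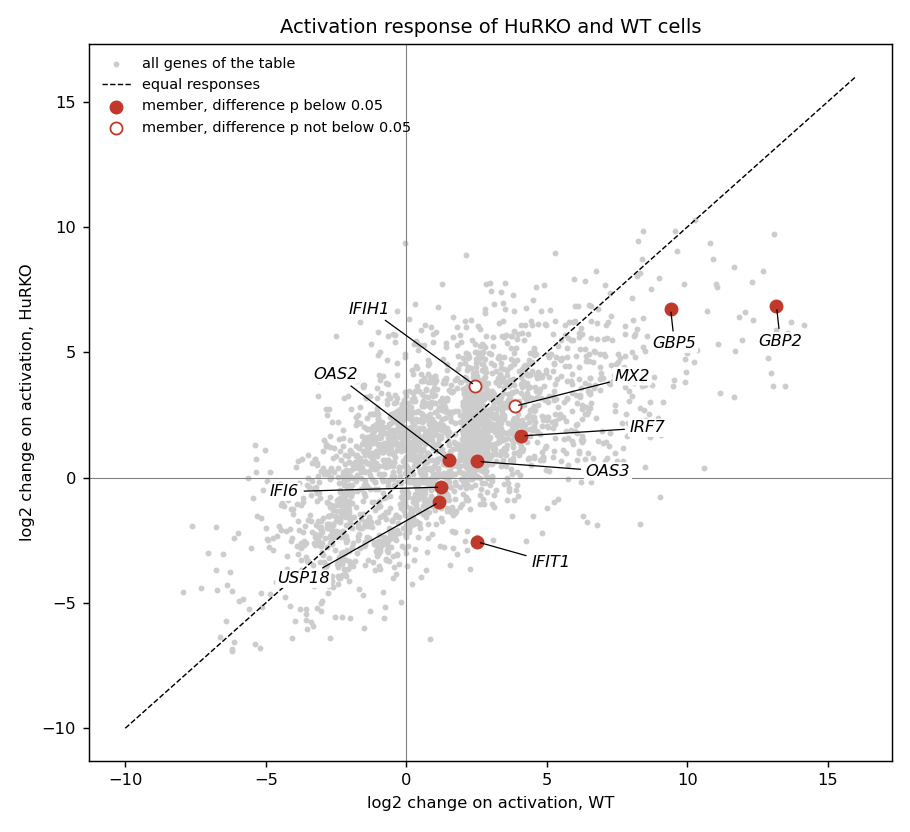
Log2 change on activation in HuRKO cells (vertical axis) and WT cells (horizontal axis) for all 2587 genes (grey) and the 10 members (red), with equal responses on the dashed line. Filled members have a difference with adjusted p below 0.05. IFIH1 alone lies above the line, and IFIT1, USP18 and IFI6 lie below 0 on the vertical axis and right of 0 on the horizontal axis.

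Among the 10 genes, OAS3 was nearest to the group's median profile over the 4 groups (distance 0.31 on centred log2 levels) and GBP2 farthest (9.16). OAS2 was next nearest (0.60). The 5 genes outside the group nearest to that profile were MANSC1, AL356417.1, DERL3, ANKRD20A17P and AC022239.3, with distances of 0.34 to 0.45. They were thus nearer to it than every member except OAS3, so the median profile is not one that the 10 share. These 5 had low levels, and their changes on activation in HuRKO cells were not called. DERL3, which encodes a protein of endoplasmic reticulum degradation, was at 10.6 in activated HuRKO against 90.7 in activated WT cells. None of the 5 is on the pathway list.

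The wider pathway was read from a list of 117 genes, of which 48 are in the table, 38 of them outside the 10. The table holds only genes past FDR below 0.05 and 4-fold in at least 1 comparison. The other genes of the list did not pass that rule or were not measured, so the counts below leave them out. Of these 38 in activated cells, 30 were lower in HuRKO, 5 were higher and 3 were not called, with a median log2 change of -1.76. The share of the table was 35.4% lower and 42.2% higher. At rest 12 were lower, 2 higher and 24 not called, against 15.4% and 25.0% of the table. On activation, 30 of the 38 rose in HuRKO cells (58.1% of the table) and 35 in WT cells (52.0% of the table). The difference of responses was called in 10 of the 38, in each with a smaller or reversed response in HuRKO cells. The share of the table in that direction was 10.4%. Since the table was selected on these comparisons, the counts are not a test of the list.

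Of 10 listed ligands, only the interferon gamma gene IFNG is in the table. Its level was 1.53 in activated HuRKO cells against 79.6 in activated WT cells, and it was below the floor at rest in both. Of 6 receptors, only IFNLR1, a chain of the interferon lambda receptor, is present, and it was higher in HuRKO, at 157 against 73.1 after activation. Of 17 sensors and adaptors 5 are in the table, and all 5 were lower in activated HuRKO cells (35.4% of the table). Besides IFIH1, the single-stranded RNA sensor TLR7 was at 10.2 against 90.1, the helicase gene DDX60 at 406 against 1865 and DDX58, which encodes the RNA sensor RIG-I, at 602 against 1407.

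Of 14 JAK, STAT and IRF genes 9 are in the table. After activation, 7 of the 9 had lower levels in HuRKO cells, 1 had a higher level and 1 was not called. The table had 35.4% lower and 42.2% higher. BATF2 was below the floor in activated HuRKO cells against 19.8 in activated WT cells, so no fold is given. In the authors' deposited table its log2 change was -5.10, and the SE was at most 1.29. IRF8 was at 65.5 against 487, and IRF5 was higher, at 26.0 against 2.28. Of 55 effectors 24 are in the table. Of the 24, read against the same shares, 19 were lower, 3 higher and 2 not called. IFI44L was below the floor in activated HuRKO cells against 309 in activated WT cells. In the authors' deposited table its log2 change was -8.44, and the SE was at most 0.89. OAS1, the third clustered oligoadenylate synthetase gene on chromosome 12, was at 76.5 against 887. All 3 were thus lower in activated HuRKO than in activated WT cells, although activation raised all 3 in HuRKO cells. IFIT3, which lies near IFIT1 on chromosome 10, was at 77.8 against 900.4. TNFSF10 and APOBEC3H, named after their values were seen, were higher with MX2, at 1398 and 184 against 983 and 53.6.

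Of 8 GTPase genes 6 are in the table. After activation, 5 of the 6 had lower levels in HuRKO cells and 1 a higher level, against 35.4% and 42.2% of the table. All 5 listed guanylate-binding genes of the chromosome 1 cluster were lower, GBP3 the least, at 729 against 1035. On activation GBP3 rose 5.50-fold in HuRKO and 4.73-fold in WT cells. GBP1 was at 1086 against 5446 and GBP4 at 54.4 against 362, while IRGM, an autophagy-linked GTPase gene, was higher at 108 against 8.56. ISG15, the modifier that USP18 removes, was at 492 against 2105. It shared the opposite responses of IFIT1, USP18 and IFI6, with 492 in activated against 692 in resting HuRKO cells and 2105 against 859.5 in WT cells. The fifth gene of the list that fell in HuRKO and rose in WT cells was IRF8, at 65.5 in activated against 146 in resting HuRKO cells and 487 against 128 in WT cells.

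**Figure D5:**
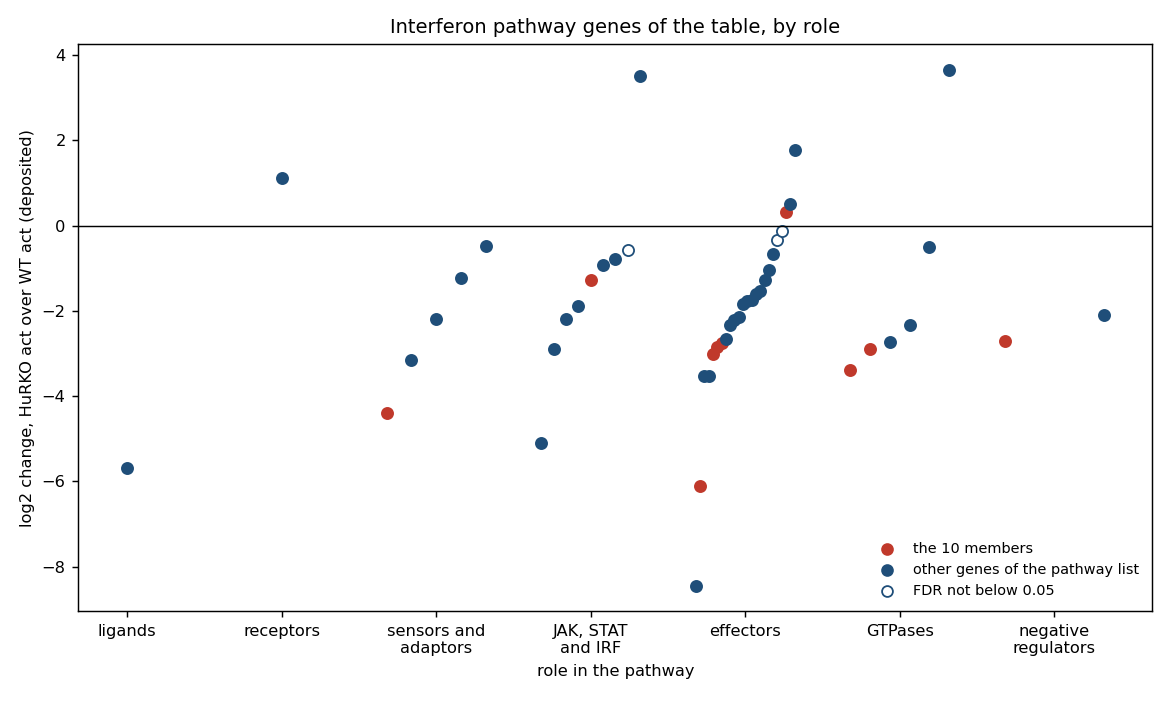
Deposited log2 change of activated HuRKO over activated WT cells for the 48 interferon pathway genes of the table, grouped by role, with the 10 members in red, other genes in blue and open symbols where FDR was not below 0.05. Of the 48, 39 are lower and 6 higher in HuRKO, and the lowest point is IFI44L at -8.44.

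Since the study concerns an RNA-binding protein, the 3′ UTRs of the 10 mRNAs were read from GENCODE 29, with 1 coding transcript per gene. Their median length was 296 bases, against 1107 bases for 1739 listed coding genes with a 3′ UTR of at least 100 bases. They ranged from 90 bases in IRF7 to 3276 in OAS3. The AU-rich pentamer ATTTA occurred in 7 of the 10, against 67.7% of the listed genes, and most often in USP18, with 3 copies. These shares are not adjusted for the shorter 3′ UTRs of the 10. Per kilobase, the median was 2.22 pentamers in the 10 and 1.36 in the listed genes. The nonamer TTATTTATT occurred in 0 of the 10, against 9.20% of the listed genes, again without adjustment for length. IFIT1 and IFIH1, with the largest falls in activated HuRKO cells against activated WT cells, had 1 pentamer each, in 3′ UTRs of 276 and 121 bases, and MX2, which was higher there, had 2 in 710 bases. The median share of T was 30.4% in the 10 and 28.1% in the listed genes. HuR binding was not measured in these libraries.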

How the data were processed

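The file analysed is the authors' deposited table of 4 comparisons. TopHat and Bowtie2 were used with hg38, per the submitters' processing notes; the sources used here name no version, counting tool or test. The deposited baseMean is a signal, the mean normalised count over all libraries, and the deposited changes are taken as log2. The header gives no base: with base 2, 32.9% of resting HuRKO levels below the floor fall in 1 window 10% wide, against 5.76% with base e. The deposited FDR is an adjusted p-value by the authors. No column of values per sample was present, so depth is unknown and no count model was fitted; the floor covers counting error only.

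Group levels follow from the mean and the changes, with equal groups of 3 libraries. An upper bound of each SE is the change divided by the normal quantile of its FDR. The difference of responses used the smaller variance sum over the genotype and activation comparisons (Python 3.11.15, scipy 1.17.1). It assumes that the authors' test is close to normal. Of the gene IDs, 2577 matched GENCODE 29, of the same build, without version, and coordinates are from it. Promoters came from RefSeq tables. For 3′ UTRs the principal, longest basic transcript was taken.

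Members and lists were chosen with earlier results of these data known, and the 3′ UTR reading was added after the data were seen. Named genes were all members, up to 3 other pathway genes per role with the largest called change in activated cells, and the 5 nearest profiles. TNFSF10, APOBEC3H, GBP3 and the cell type markers were named outside this rule, after their values were seen. P-values measure how far these libraries scatter, which may be technical only. Alternatives were a stricter FDR, minimum folds, other variance sums, another adjustment, base e and a shorter promoter window.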

Additional observations from a re-analysis of the deposited data

Results flagged for a closer look

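For 8 of the 10 genes the activation response differed between HuRKO and WT cells by the conservative test of the difference. On the log2 scale, HuRKO minus WT, the differences were -6.33 for GBP2, -5.08 for IFIT1, -2.66 for GBP5, -2.43 for IRF7, -2.15 for USP18, -1.89 for OAS3, -1.63 for IFI6 and -0.84 for OAS2. The GBP2 value rests on a resting WT level at the floor. OAS2, IFI6 and USP18 are in the table only through the activated HuRKO and WT comparison, which is part of the difference.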

How the results depend on the processing

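Counts of called members kept within 1.5 times of their value under a stricter FDR in each comparison, but some moved with a minimum fold. For HuRKO over WT at rest, 9 were called and 2 with 4-fold. For activation in HuRKO cells, 10 were called, 6 with 2-fold and 5 with 4-fold. The count of called differences was 8, and it was 6 with the genotype comparisons only, 8 with the activation comparisons only and 10 with Benjamini-Hochberg adjustment. That last adjustment covered only the selected genes of the table and may be too lenient. On base e in place of base 2, the median ratio of activated HuRKO to activated WT levels was 0.0566 in place of 0.137. The ISRE core was in 4 of 4 windows with and without the 50 bases after the start. All matches lie before the RefSeq start, so leaving out those bases could not change this count. No paired analysis was possible because the table holds comparisons and no column per sample, and for the same reason no replicate could be left out. A change in a group near the floor, such as GBP2 in resting WT cells, is limited by depth.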
